A study of Homo sapiens with 12 samples.

Results

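RNA-seq counts were examined for 38 genes that together cover the activating transcription factor 4 (ATF4) response and the charging of transfer RNA in T47D cells, a luminal human breast cancer line that expresses estrogen and progesterone receptors. The genes were chosen by symbol from what they are known to do, as ATF4 itself, partner and target transcription factors, stress effectors, enzymes of amino acid and one-carbon synthesis, amino acid transporters and the cytosolic aminoacyl-tRNA synthetases. All 38 were found among the 25370 gene rows of the count table. The 12 libraries fell into 4 groups of 3 replicates lettered a, b and c, which received vehicle, anastrozole at 10 nM, E2 (17β-estradiol) at 0.1 nM, or anastrozole at 10 nM plus E2 at 0.1 nM. Anastrozole is a drug that blocks aromatase, which makes estrogens from androgens. All groups, vehicle included, had first been kept for 48 hours in medium with 5% charcoal-stripped serum, which lowers its steroid content, and then for 24 hours without serum. The labels give 12 hours of treatment and the study's methods give 24 hours. The question asked of the design was whether anastrozole moves the same genes as E2, alone or in combination.

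ATF4 is a transcription factor whose mRNA is present in unstressed cells and is translated more efficiently when initiation factor eIF2 is phosphorylated by one of its kinases, for example when amino acids run short or proteins misfold. The protein binds, often with a C/EBP partner, to composite C/EBP-ATF elements in genes for amino acid uptake, amino acid synthesis and tRNA charging. ATF4 mRNA is therefore an incomplete readout of ATF4 activity, and its targets are usually read alongside it. Aminoacyl-tRNA synthetases attach each amino acid to its tRNA, and many of their genes are known ATF4 targets.

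The sequence that links these genes was looked up in their promoters, since several of the members described below carry it. RefSeq promoter windows (GRCh38.p14, 250 bases before to 50 after the gene start) were matched for 31 of the 38 members. The rest were not searched, and are not told apart below from members searched without a match. The letters TGATGNAA, the core of the composite element, were searched on both strands and were found in 12 of the 31 windows (38.7%), against 1270 of 35116 windows of the same length (3.62%). Many members were listed because they are known ATF4 targets, so the higher share follows from that choice and is not a test. The stretches of 6 members before the gene start are shown, 5′ to 3′ on the gene's strand, with the match in capitals. A match on the opposite strand appears as its reverse complement.
ASNS, chr7:97872429-97872516, minus strand: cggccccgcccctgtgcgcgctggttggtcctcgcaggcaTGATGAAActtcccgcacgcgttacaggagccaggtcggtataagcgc
CEBPG, chr19:33374031-33374112, plus strand: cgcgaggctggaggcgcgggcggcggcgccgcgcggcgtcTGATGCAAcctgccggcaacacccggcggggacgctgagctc
SLC1A5, chr19:46784864-46784951, minus strand: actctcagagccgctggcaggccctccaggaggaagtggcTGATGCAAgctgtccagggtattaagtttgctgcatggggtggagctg
CHAC1, chr15:40953222-40953309, plus strand: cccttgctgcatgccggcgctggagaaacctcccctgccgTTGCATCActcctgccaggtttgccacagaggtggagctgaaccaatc
AARS, chr16:70289646-70289733, minus strand: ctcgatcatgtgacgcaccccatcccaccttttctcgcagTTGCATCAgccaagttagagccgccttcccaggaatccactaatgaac
GARS, chr7:30594805-30594877, plus strand: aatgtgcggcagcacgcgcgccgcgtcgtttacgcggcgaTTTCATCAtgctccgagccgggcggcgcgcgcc
The other members with a match were SLC3A2, CARS, IARS, MARS, NARS and TARS. The consensus palindrome of the estrogen response element was found in 0 of the 31 windows and in 20 of the 35116. A match is a description of letters and was not tested for binding, and a window without one says nothing about sites elsewhere.

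The libraries held 9914253 to 17009776 gene reads, so that 3 counts corresponded to between 0.177 and 0.303 CPM (gene counts made comparable between libraries with edgeR's TMM factors), and this floor covers counting error only. The members' reads made up 0.454% to 0.457% of the gene reads in vehicle, 0.453% to 0.456% with anastrozole, 0.466% to 0.471% with E2 and 0.461% to 0.469% with anastrozole plus E2. The E2 and combination libraries thus lay above all vehicle and anastrozole libraries in this share. The luminal markers ESR1, PGR, GATA3, FOXA1, KRT8, KRT18, KRT19 and EPCAM were all present (their summed level was 9224 to 10270 CPM), and of 6 markers of other cell types PTPRC, COL1A2, PECAM1, KRT5 and KRT14 lay between 0 and 0.643 CPM, while COL1A1 was at 80.0 to 99.9 CPM. Anastrozole replicates a and c differed more than any other pair of replicates. In bulk RNA, fewer cells that express a gene and less RNA per cell cannot be told apart, and nothing in the labels says that replicates came from separate cultures, so that the p-values measure the spread between these samples, which may be technical.

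Each pair of groups was compared with edgeR's quasi-likelihood test on its 6 libraries, with Benjamini-Hochberg adjustment over 21132 genes, and a gene was said to rise or fall at an adjusted p under 0.05 (2-sided). The 3 comparisons with vehicle share the vehicle libraries. With E2, 9 of the 38 members rose (6.06% of all genes did) and 4 fell (5.95%). With anastrozole 3 rose (1.4% of all genes) and 3 fell (2.27%), and with anastrozole plus E2 4 rose (2.71%) and 1 fell (2.33%). Since 36 of the 38 members had a mean of at least 10 CPM, and genes at such levels pass the test more often, the background at that level is the closer one. It was 22.2% in either direction with E2, 6.79% with anastrozole and 8.59% with the combination. The median log2 fold change over the members was 0.04 with E2, -0.02 with anastrozole and 0.01 with the combination, against 0 over all genes. The changes were small, with the largest among the members' called values being a fall of 24.0% (ATF5 with E2) and a rise of 28.7% (DDIT3 with E2), and 22 members passed in none of the comparisons with vehicle.

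**Figure D1:**
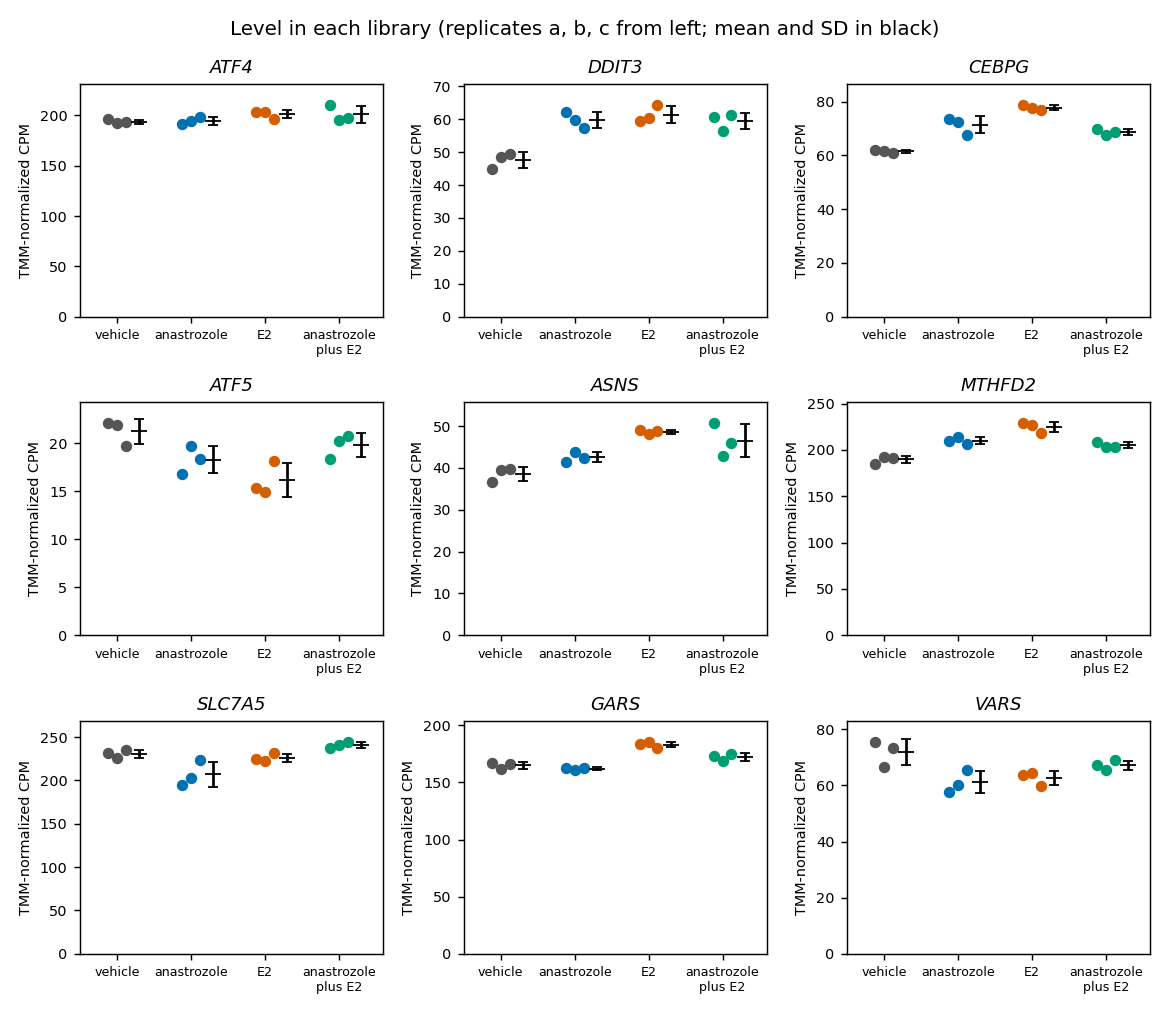
TMM-normalized CPM (vertical axis, from 0) of 9 members in each of the 12 libraries, with replicates a, b and c as points from left to right in each group and the mean and SD (n = 3) in black. ATF4 lies between 191 and 211 CPM throughout, while DDIT3 and CEBPG lie higher in all 9 treated libraries than in the 3 vehicle libraries.

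ATF4 mRNA (GRCh37 chr22:39915700-39918688, plus strand) did not pass the test with any treatment. It measured 196.1, 192.1 and 193.2 CPM in the vehicle libraries, 191, 194 and 198 with anastrozole, 203.8, 203.5 and 196.3 with E2, and 211, 195 and 197 with anastrozole plus E2. The E2 libraries all lay above the vehicle libraries, the lowest of them by less than 1 CPM, while the anastrozole and combination libraries overlapped with vehicle. Its log2 fold change against vehicle was 0.00 ± 0.05 (SE) with anastrozole, 0.05 ± 0.04 with E2 and 0.05 ± 0.04 with the combination (adjusted p = 1, 0.4 and 0.569). With each library's dependence on GC content taken out, an alternative described below, ATF4 was called higher with E2 (0.14 ± 0.03, adjusted p = 0.000623).

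DDIT3, which encodes CHOP, a stress-induced C/EBP-family factor downstream of ATF4, rose with all 3 treatments. It measured 44.9, 48.7 and 49.5 CPM in vehicle and 62.2, 59.8 and 57.2 CPM in the anastrozole libraries. It measured 59.3, 60.5 and 64.4 CPM with E2 and 60.7, 56.5 and 61.1 CPM with the combination. Every treated library was above every vehicle library, and the 3 treated groups overlapped. The log2 fold change was 0.33 ± 0.06 with anastrozole (adjusted p = 0.00014), 0.36 ± 0.06 with E2 (4.8e-09) and 0.32 ± 0.05 with the combination (7.59e-07), and each call was kept when any of the 6 libraries was left out. The call with anastrozole was lost with limma-voom (adjusted p = 0.083). DDIT3 lies at chr12:57910371-57915520 on the minus strand, and 27.2% of its exon bases are also exon bases of MARS, the methionyl-tRNA synthetase, on the other strand. The strand setting of the read counting is not given in the sources used here, so reads from the shared bases cannot be assigned with certainty. MARS itself did not pass in any comparison with vehicle, with log2 fold changes of -0.11 ± 0.05, -0.02 ± 0.04 and -0.03 ± 0.04.

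CEBPG, a C/EBP factor that pairs with ATF4 and whose promoter window holds the match shown above, was also higher in every treated library than in every vehicle library. It measured 62.0, 61.7 and 60.8 CPM with vehicle and 73.6, 72.6 and 67.7 CPM with anastrozole. It measured 78.8, 77.6 and 76.7 CPM with E2 and 69.7, 67.6 and 68.8 CPM with the combination. The E2 libraries were the highest and did not overlap with those of any other group. The log2 fold change against vehicle was 0.34 ± 0.05 with E2 (adjusted p = 3.03e-09), 0.21 ± 0.06 with anastrozole (0.0193) and 0.16 ± 0.05 with the combination (0.0351). The E2 call held without any single library and in all 10 alternative fits. The anastrozole call was lost without anastrozole replicate a or b or vehicle replicate a or c, with adjusted p up to 0.17, and the combination call was lost without any 1 library except vehicle replicate a, with adjusted p up to 0.13. The anastrozole call was also lost with DESeq2 and limma-voom (adjusted p up to 0.14), and the combination call with these and with all 12 libraries in one fit (up to 0.2).

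The other C/EBP and ATF factors moved in different ways. ATF5, itself translated under eIF2 phosphorylation, fell with E2, from 22.1, 21.9 and 19.8 CPM with vehicle to 15.4, 15.0 and 18.2 CPM. The groups did not overlap, and the log2 fold change was -0.40 ± 0.09 (adjusted p = 0.000439), kept without any single library. As for DDIT3, part of the exon bases of ATF5 (19.5%) are shared with a gene on the other strand, NUP62, so the same limit on assigning reads applies. Its values were -0.22 ± 0.10 with anastrozole and -0.10 ± 0.08 with the combination (adjusted p = 0.228 and 0.638). CEBPB, a C/EBP factor active in the mammary epithelium, rose with the combination, from 23.9, 23.5 and 27.8 CPM to 26.3, 32.5 and 34.2 CPM. One combination library, replicate a, lay below the highest vehicle library. The log2 fold change was 0.30 ± 0.07 (adjusted p = 0.00239), and the call was lost without combination replicate c (adjusted p = 0.14). CEBPB stood at 0.19 ± 0.08 with E2 (adjusted p = 0.0887) and at 0.00 ± 0.09 with anastrozole. These values were 0.34 ± 0.07, which passed (adjusted p = 0.000131), and 0.15 ± 0.08, which did not (0.409), with the GC trend removed.

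Of the stress effectors, 0 of 3 passed the edgeR test in any comparison with vehicle. Among genes of at least 10 CPM, 6.79%, 22.2% and 8.59% passed with anastrozole, E2 and the combination. Of the 3 effectors, 1 (TRIB3, with anastrozole) had an unadjusted p under 0.05, while DESeq2, limma-voom and edgeR's exact test also called 0. TRIB3, a pseudokinase that restrains ATF4 and CHOP, stood at -0.15 ± 0.06 with anastrozole on the log2 scale (adjusted p = 0.187), -0.10 ± 0.05 with E2 and -0.03 ± 0.05 with the combination. SESN2, a leucine-sensing sestrin that inhibits mTORC1, stood at -0.03 ± 0.07, -0.08 ± 0.06 and 0.07 ± 0.06 in the same order. CHAC1, which degrades glutathione and whose promoter window also holds the match shown above, was expressed at 1.22 to 2.71 CPM. This is about the level at which the error no longer resolves such changes. CHAC1 stood at -0.29 ± 0.28, -0.01 ± 0.25 and -0.03 ± 0.25.

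**Figure D2:**
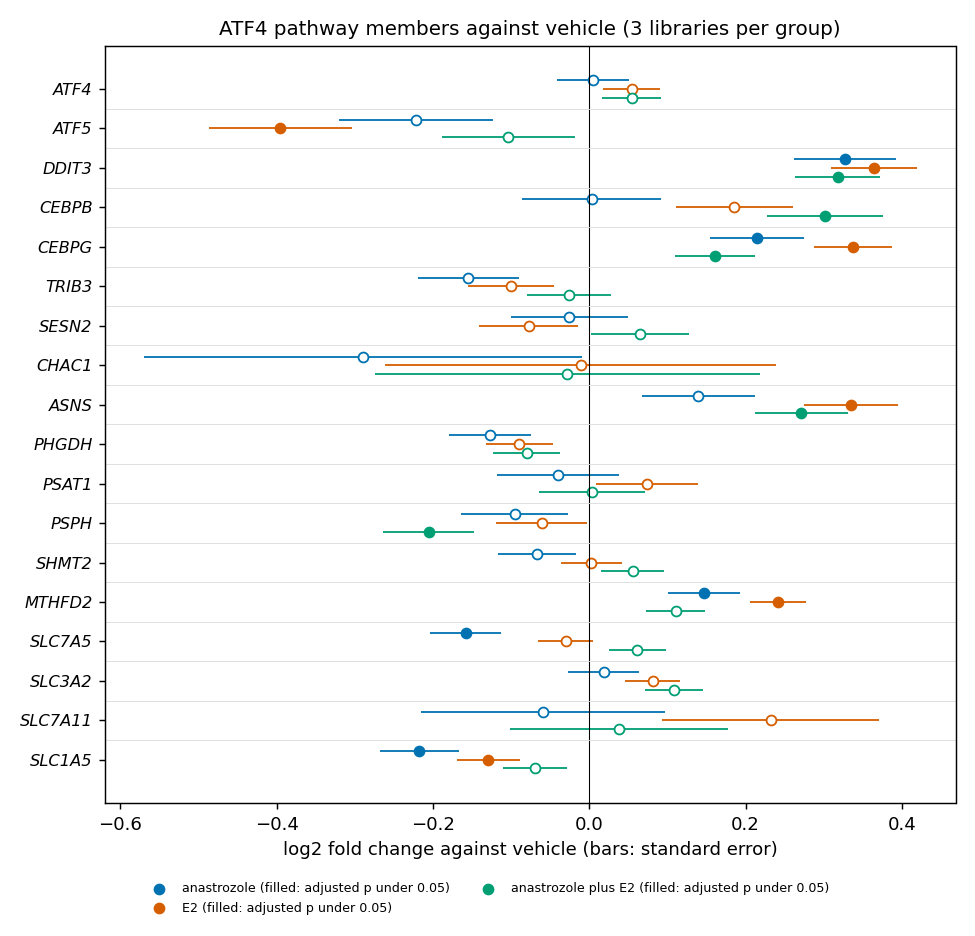
Log2 fold change against vehicle (horizontal axis, bars are standard errors) for the 18 members other than the synthetases, with 3 libraries per group. Filled points passed an adjusted p of 0.05. DDIT3 and CEBPG sit right of 0 for all 3 treatments, ASNS and MTHFD2 are highest with E2, and ATF5, SLC1A5 and PSPH hold the filled points left of 0 together with SLC7A5.

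Among the enzymes of amino acid and one-carbon synthesis, ASNS and MTHFD2 rose and the serine synthesis genes did not. ASNS, asparagine synthetase (chr7:97480989-97501854, minus strand), whose promoter window holds the match shown above, measured 36.6, 39.5 and 39.7 CPM with vehicle. It measured 41.4, 43.9 and 42.4 CPM in the anastrozole libraries, 49.1, 48.2 and 48.9 CPM with E2 and 50.7, 42.9 and 45.9 CPM with the combination. All 9 treated libraries exceeded the vehicle libraries, and the 3 E2 libraries lay within 1 CPM of one another. The log2 fold change was 0.33 ± 0.06 with E2 (adjusted p = 1.44e-06), 0.27 ± 0.06 with the combination (0.000368) and 0.14 ± 0.07 with anastrozole (0.343). The combination call was lost without combination replicate a (adjusted p = 0.06).

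MTHFD2, a mitochondrial enzyme of the folate cycle, measured 185, 193 and 191 CPM with vehicle, 210, 214 and 207 with anastrozole, 229, 227 and 218 with E2, and 209, 203 and 203 with the combination. Treated and vehicle libraries did not overlap, and the E2 libraries were the highest. Of its exon bases, 11.6% are shared with SLC4A5 on the other strand. It rose with E2 by 0.24 ± 0.04 (adjusted p = 2.28e-09) and with anastrozole by 0.15 ± 0.05 (0.0453), and stood at 0.11 ± 0.04 with the combination (0.0647). The anastrozole call was kept only without anastrozole replicate c, with adjusted p up to 0.27 otherwise. PSPH, the last enzyme of serine synthesis, fell with the combination by 0.21 ± 0.06 (adjusted p = 0.0138), from 44.7, 46.3 and 50.2 CPM to 39.98, 41.5 and 41.0 CPM, with no overlap. That call was lost without any 1 combination library or without vehicle replicate c (adjusted p up to 0.27). PHGDH and PSAT1, the enzymes before it, and SHMT2, which passes serine's carbon to folate, did not pass in any of the 3 comparisons, with log2 fold changes between -0.13 and 0.07.

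Of the 4 amino acid transporters, SLC1A5 and SLC7A5 fell with anastrozole and none rose under TMM scaling. Among all genes 2.27% fell with anastrozole, and 6.79% of those of at least 10 CPM were called in either direction. With the GC trend removed neither SLC1A5 nor SLC7A5 passed with anastrozole (-0.11 ± 0.04 and -0.05 ± 0.035). In that fit SLC1A5 stood at -0.01 ± 0.04 with E2. SLC3A2 was called higher there with E2 (0.13 ± 0.03, adjusted p = 0.00185) and with the combination (0.12 ± 0.03, adjusted p = 0.0108). SLC1A5 is a glutamine carrier whose promoter window also holds the match shown above. It fell with anastrozole, from 141, 135 and 155 CPM to 114, 124 and 134 CPM, and stood at 130.1, 138 and 126 CPM with E2. The anastrozole libraries all lay below the vehicle libraries, and 1 E2 library overlapped with them. The log2 fold change was -0.22 ± 0.05 with anastrozole (adjusted p = 0.0019), -0.13 ± 0.04 with E2 (0.0146) and -0.07 ± 0.04 with the combination (0.45). The anastrozole call was lost without anastrozole replicate a or vehicle replicate c (adjusted p up to 0.24), and the E2 call without E2 replicate a or c or vehicle replicate c (up to 0.47). SLC7A5, the LAT1 carrier of leucine and other large neutral amino acids, measured 231, 226 and 235 CPM with vehicle and 195, 203 and 223 CPM with anastrozole, without overlap. It fell by 0.16 ± 0.05 (adjusted p = 0.0241), a call lost without anastrozole replicate a or b or vehicle replicate a or c (up to 0.33), and stood at -0.03 ± 0.04 with E2 and 0.06 ± 0.04 with the combination. SLC3A2, the heavy chain it pairs with, stood at 0.02 ± 0.05, 0.08 ± 0.03 and 0.11 ± 0.04 with anastrozole, E2 and the combination (adjusted p = 0.927, 0.118 and 0.0592). SLC7A11, the cystine carrier, was low at 4.85 to 8.12 CPM and did not pass.

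Of the 20 cytosolic synthetases, 5 rose and 2 fell with E2, where 22.2% of genes of at least 10 CPM were called in either direction, and 1 fell with anastrozole, against 6.79% of such genes. With the combination 0 passed (1 had an unadjusted p under 0.05, and DESeq2, limma-voom and edgeR's exact test called 0), against 8.59%. The median log2 fold change over the 20 under TMM scaling was 0.039 with E2, -0.009 with anastrozole and 0.003 with the combination. With the GC trend removed, 3 rose (AARS, SARS and TARS) and 0 fell with E2, against 13.7% of genes of at least 10 CPM, and 0 passed with anastrozole or the combination, against 5.31% and 10.4%. The medians were then 0.015, 0.006 and 0.007, so that the sign with anastrozole turned. GARS, the glycyl-tRNA synthetase (chr7:30620149-30673649, plus strand), measured 167, 162 and 166 CPM with vehicle and 184, 186 and 181 CPM with E2. The E2 libraries lay above all libraries of the other groups. With anastrozole it measured 163, 161 and 163 CPM and with the combination 173, 168 and 175 CPM, the first within or below the vehicle range and the second above it in each library. The rise with E2 was 0.15 ± 0.04 (adjusted p = 0.00124), kept without any single library but lost with the GC trend removed (0.07 ± 0.03, adjusted p = 0.24). TARS (threonine) rose with E2 by 0.18 ± 0.05 (adjusted p = 0.00245), from 81.2, 78.6 and 73.4 CPM to 86.2, 90.3 and 87.5 CPM. Its groups did not overlap, and the call was lost without vehicle replicate c (adjusted p = 0.081).

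SARS (serine) rose with E2 by 0.14 ± 0.04 (adjusted p = 0.0144), EPRS (glutamate and proline) by 0.11 ± 0.03 (0.0126) and FARSB, the beta subunit of the phenylalanine enzyme, by 0.16 ± 0.06 (0.0355), and each of these was lost in 3 of the 6 fits that left out a library. FARSA, the alpha subunit of the same enzyme, fell with E2 by 0.15 ± 0.05 (adjusted p = 0.0376), and its call was lost in 3 of 6. With the GC trend removed the values of FARSA and FARSB were -0.03 and 0.09 and neither passed, and their calls were lost in 7 and 6 of the 10 alternative fits. EPRS stood at 0.05 ± 0.03 with the trend removed and did not pass (adjusted p = 0.437), while SARS kept its call. VARS (valine; chr6:31745295-31763529, minus strand) measured 75.5, 66.6 and 73.4 CPM with vehicle, 57.8, 60.1 and 65.5 CPM in the anastrozole libraries, 63.8, 64.3 and 60.0 CPM with E2 and 67.1, 65.6 and 68.9 CPM with the combination. All anastrozole and E2 libraries lay below the vehicle libraries. VARS fell by 0.23 ± 0.06 with anastrozole (adjusted p = 0.00796) and by 0.20 ± 0.05 with E2 (0.00229), and stood at -0.10 ± 0.05 with the combination (0.345). Neither fall passed with the GC trend removed (-0.12 ± 0.05 and -0.07 ± 0.05, adjusted p = 0.239 and 0.433). The E2 call was lost without E2 replicate c (adjusted p = 0.051) and the anastrozole call in 4 of 6 such fits (up to 0.15). The remaining 13 synthetases passed in none of the 6 comparisons of groups, and their log2 fold changes against vehicle lay between -0.12 and 0.13.

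**Figure D3:**
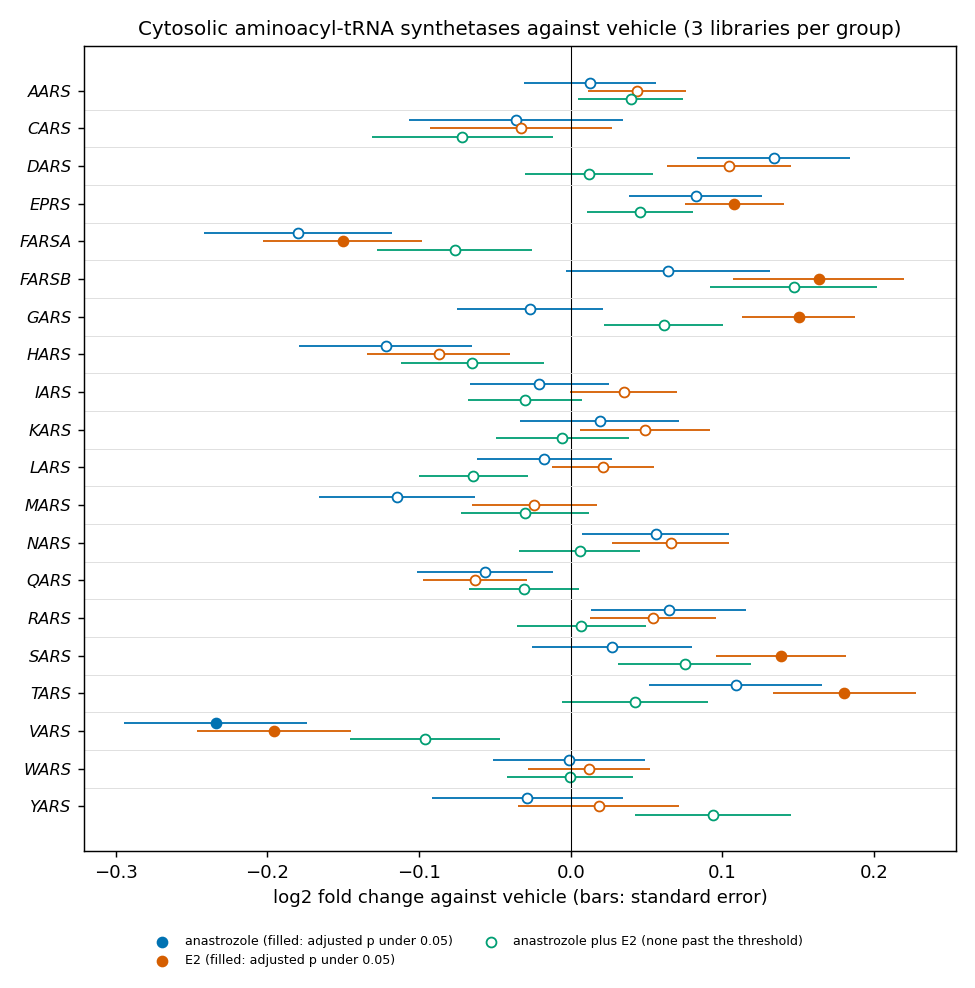
Log2 fold change against vehicle (horizontal axis, bars are standard errors) for the 20 cytosolic aminoacyl-tRNA synthetases, with 3 libraries per group. Filled points passed an adjusted p of 0.05. The filled points are EPRS, FARSA, FARSB, GARS, SARS, TARS and VARS with E2 and VARS with anastrozole, and all 20 points of the combination are open.

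How far these counts rest on single libraries was examined for each comparison. With anastrozole the count of 6 members fell to 1 without anastrozole replicate a or vehicle replicate c and to 2 without anastrozole replicate b or vehicle replicate a, and DDIT3 was kept each time. The calls over all genes fell with them, from 776 to 246, 191, 301 and 287 without anastrozole replicate a, vehicle replicate c, anastrozole replicate b and vehicle replicate a. Without anastrozole replicate c the members rose in number to 9 and the calls over all genes to 1651. With E2 the count of 13 fell to 8 without E2 replicate c, where all genes went from 2537 to 1785. With the combination the count of 5 fell to 2 without combination replicate a or c and to 3 without combination replicate b or vehicle replicate c, and all genes went from 1065 to 886, 686, 682 and 727 in that order. Other tools also called fewer genes. With limma-voom all 6 calls with anastrozole were lost, those of FARSA, FARSB, SARS, SLC1A5 and VARS with E2, and all but that of DDIT3 with the combination, where the calls over all genes were 15, 1379 and 347. With the DESeq2 test DDIT3 alone was kept with anastrozole and DDIT3 and ASNS with the combination, where all genes gave 238 and 476 calls.

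The treatments were then compared with each other, since a gene that passes against vehicle with one treatment and not with another need not differ between them. Between anastrozole and E2, 0 members were higher (0.62% of all genes, 7 members in either direction at an unadjusted p under 0.05) and 1 was lower with anastrozole (0.705%; 2.47% of genes of at least 10 CPM in either direction). This was GARS, lower by 0.17 ± 0.04 (adjusted p = 0.00781), a call lost without anastrozole replicate b or E2 replicate a or b (adjusted p up to 0.17). It was also lost with limma-voom and with the replicate block (adjusted p up to 0.07). The count was 3 without anastrozole replicate c, where all genes went from 280 to 414. For DDIT3 the difference was -0.03 ± 0.06, for CEBPG -0.12 ± 0.05, for MTHFD2 -0.09 ± 0.04 and for ASNS -0.19 ± 0.07 (adjusted p = 0.935, 0.453, 0.447 and 0.211), none of which passed.

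Between anastrozole plus E2 and E2 alone, 1 member was higher (3.23% of all genes) and 3 were lower (3.51%; 13% of genes of at least 10 CPM in either direction). CEBPG was lower in the combination by 0.18 ± 0.05 (adjusted p = 0.00428) and MTHFD2 by 0.13 ± 0.03 (0.00369), and both calls were kept without any single library. Both were lost with the GC trend removed (-0.11 ± 0.04 and -0.08 ± 0.03, adjusted p = 0.287 and 0.315), and that of MTHFD2 also with limma-voom. TARS was lower by 0.14 ± 0.04 (adjusted p = 0.0232) and ATF5 higher by 0.29 ± 0.08 (0.012), and each was lost in 4 of 6 such fits. The count fell to 2 without combination replicate c or E2 replicate b, where all genes went from 1424 to 935 and 1176. DDIT3 and ASNS stood at -0.05 ± 0.05 and -0.06 ± 0.06.

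Between anastrozole plus E2 and anastrozole alone, 2 members were higher (1.71% of all genes) and 0 were lower (1.18%; 5.41% of genes of at least 10 CPM in either direction; 7 members had an unadjusted p under 0.05). SLC7A5 measured 237, 242 and 245 CPM with the combination against 195, 203 and 223 with anastrozole, without overlap. It was higher by 0.22 ± 0.04 (adjusted p = 0.000107), kept without any single library. The call was lost with limma-voom (adjusted p = 0.098), and with the GC trend removed it was kept at 0.12 ± 0.03 (0.0272). CEBPB was higher by 0.30 ± 0.08 (0.0104), lost without combination replicate b or c or anastrozole replicate a (up to 0.41). Its call was also lost in 6 of the 10 alternative fits (up to 0.32). These were filterByExpr, the DESeq2 test, limma-voom, edgeR's exact test and the GC trend removed with or without the replicate block. The count of members was 7 without anastrozole replicate c and 1 without combination replicate b or c or anastrozole replicate a. All genes went from 612 to 1706, 280, 234 and 310 in that order.

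Whether the effect of anastrozole depended on E2 was tested as an interaction over the 12 libraries, a fit added after the data had been seen. It passed for 10 of the 38 members, 5 with a higher and 5 with a lower effect of anastrozole in the presence of E2, against 10.9% of all genes and 20.6% of genes of at least 10 CPM. It passed for 4 members with the GC trend removed, all lower (DDIT3 by 0.38, CEBPG by 0.28, MTHFD2 by 0.19 and ATF4 by 0.16), against 2.85% of all genes and 5.02% of genes of at least 10 CPM. The values given next are those under TMM scaling. For DDIT3, CEBPG and MTHFD2 the effect of anastrozole was lower in the presence of E2 than in its absence, by 0.37 ± 0.08, 0.39 ± 0.07 and 0.28 ± 0.06 on the log2 scale (adjusted p = 0.00019, 1.29e-05 and 6.54e-05). For each of the 3, the level in the combination lay near or below that with E2 alone, and that with anastrozole alone lay above vehicle. The call with anastrozole alone was kept without any single library only for DDIT3, and that of MTHFD2 was also lost with the GC trend removed. DARS and TARS were the other two lower members, at -0.23 and -0.25, and ATF5 (0.52), VARS (0.33), SLC1A5 (0.28), FARSA (0.25) and SLC7A5 (0.25) were the higher ones, and none of these 7 passed with the GC trend removed.

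The fold changes followed base composition, and this bears on which calls hold. Over 10852 genes Spearman's rho between log2 fold change and exon GC content was -0.53 with anastrozole, -0.55 with E2 and -0.03 with the combination against vehicle, and 0.69 between the combination and E2. Over the 38 members rho was -0.61, -0.62, -0.24 and 0.80. VARS (61.7%) and SLC1A5 (61.2%), rich in GC, fell with both single treatments, and CEBPG (41.8%) and MTHFD2 (43.3%), poorer in GC, rose with both. Single members departed from this order. CEBPB, the member with the highest GC content (66.2%), stood at 0.00 with anastrozole and 0.19 with E2. SLC7A11, that with the lowest (35.4%), stood at -0.06 with anastrozole, while its 0.23 with E2 followed the order. SLC7A5 (61.1%) stood at -0.03 with E2. Genes are not independent replicates and these points share the same libraries, so no p is given.

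With the GC trend of every library taken out, 2 members rose and 0 fell with anastrozole, 10 rose and 1 fell with E2, and 6 rose and 1 fell with the combination against vehicle. Under the same fit 5.31%, 13.7% and 10.4% of genes of at least 10 CPM were called in either direction (3.15%, 8.13% and 6.43% of all genes). DDIT3 kept its 3 calls at 0.33, 0.37 and 0.32, and CEBPG its 3 at 0.17, 0.28 and 0.16. ASNS (0.29 with E2, 0.27 with the combination), MTHFD2 (0.19 with E2), ATF5 (-0.30 with E2), SARS and TARS (0.14 each with E2), CEBPB (0.32 with the combination) and PSPH (-0.20) also kept theirs. The calls of SLC1A5, SLC7A5 and VARS against vehicle were lost, as were those of EPRS, FARSA, FARSB and GARS with E2, of MTHFD2 with anastrozole (0.11 ± 0.04, against 0.15 under TMM scaling), all 4 between the combination and E2, and that of CEBPB between the combination and anastrozole (0.16 ± 0.07, against 0.30). Without the trend, EPRS stood at 0.05, FARSB at 0.09, GARS at 0.07 and FARSA at -0.03 with E2, and VARS at -0.12 with anastrozole and -0.07 with E2. Between the combination and E2, ATF5 stood at 0.21, CEBPG at -0.11, MTHFD2 at -0.08 and TARS at -0.09, and the calls over all genes fell from 1424 to 184 (0.937%). ATF4 (0.14 ± 0.03), CEBPB (0.34 ± 0.07), SLC3A2 (0.13 ± 0.03) and AARS (0.09 ± 0.03) were then called higher with E2, as were MTHFD2 (0.11 ± 0.03) and SLC3A2 (0.12 ± 0.03) with the combination. SLC7A5 was also called lower with anastrozole than with E2 (by 0.14 ± 0.03), and GARS higher with the combination than with anastrozole (by 0.15 ± 0.04). The removal also takes away any true change that follows GC content, and its part in these calls was not tested further. It rests on GC content over all annotated exons of a gene, whichever transcripts the cells express.

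**Figure D4:**
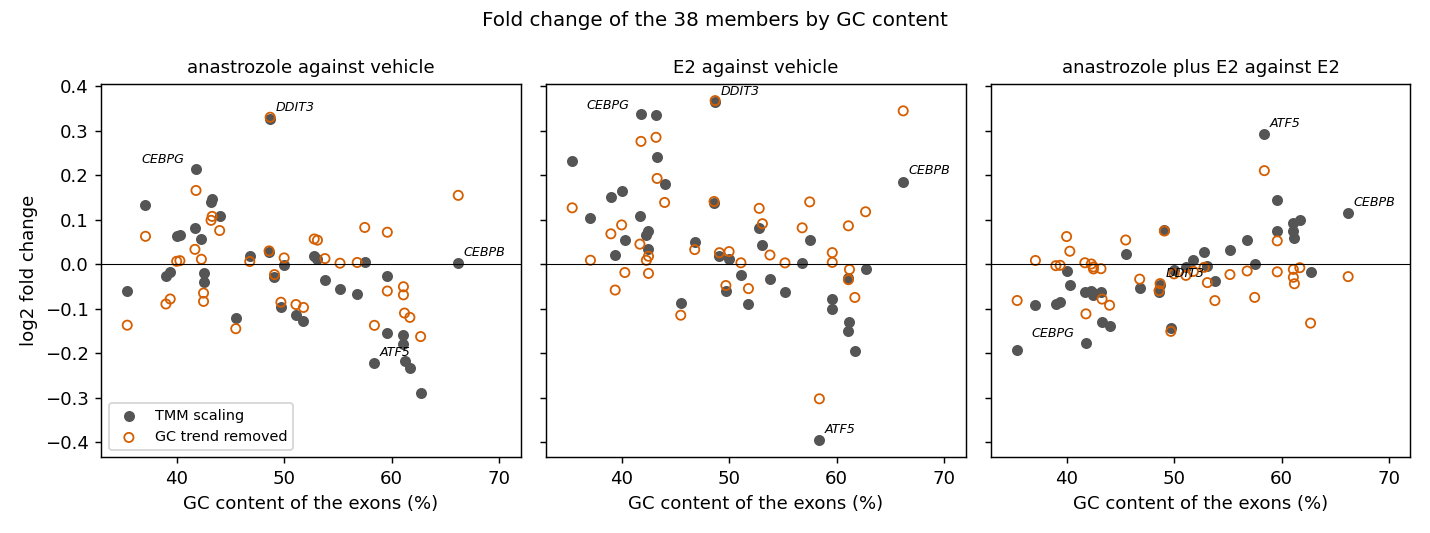
Log2 fold change (vertical axis) of the 38 members against the GC content of their exons in percent (horizontal axis) in 3 comparisons, with TMM scaling (grey) and after removal of each library's GC trend (open orange). The grey points run downwards with GC content for both single treatments (rho of -0.61 and -0.62) and upwards between the combination and E2 (0.80), while DDIT3 stands near the same height with both scalings.

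The parts of the pathway around these members were read from further gene lists. Under TMM scaling the shares of all genes given above for the members apply. With E2 these were 6.06% higher and 5.95% lower, and 22.2% in either direction at 10 CPM or more. With the GC trend removed, the shares with E2 in either direction were 13.7% at 10 CPM or more and 8.13% of all genes. Whether single calls in these lists hold with a library left out is not given here. Of 13 genes for eIF2, its kinases, phosphatases and their helpers, 0 rose and 1 fell with anastrozole, 1 rose and 1 fell with E2, and 0 rose and 2 fell with the combination. The median log2 fold change was -0.015, 0.003 and -0.034 in that order. With the GC trend removed the counts with E2 were 1 higher (PPP1R15A) and 3 lower (EIF2AK2, GCN1L1 and EIF2B1), and those with anastrozole and the combination were as before. EIF2AK2 (PKR, the kinase activated by double-stranded RNA) fell by 0.29 ± 0.07 with anastrozole (adjusted p = 0.00142) and by 0.26 ± 0.05 with the combination (0.000166), from 56.4, 61.8 and 54.9 CPM with vehicle to 47.03, 47.7 and 47.1 and to 46.3, 49.6 and 49.2 CPM, without overlap. EIF2AK4 (GCN2, the amino acid sensor) fell by 0.13 ± 0.04 with the combination (0.04), and GCN1L1, its activator, fell by 0.17 ± 0.03 with E2 (1.63e-05). EIF2S1, the phosphorylated subunit, rose by 0.10 ± 0.04 with E2 (0.0347), a call lost with the GC trend removed (0.01 ± 0.03). EIF2AK3 (PERK, the kinase of endoplasmic reticulum stress) and PPP1R15A (GADD34, which reverses the phosphorylation) did not pass, at 0.13 ± 0.07, 0.15 ± 0.06 and 0.03 ± 0.06 for EIF2AK3 and 0.19 ± 0.10, 0.19 ± 0.09 and 0.12 ± 0.08 for PPP1R15A with anastrozole, E2 and the combination.

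Of 22 other ATF4 targets, 5 rose and 2 fell with E2, 2 rose and 0 fell with the combination, and 0 rose and 1 fell with anastrozole. The median log2 fold change was 0.067, 0.022 and -0.004 in that order. With the GC trend removed, 4 rose and 1 fell with E2, 2 rose and 0 fell with the combination, and 2 rose (ATF3 at 0.24 and DDIT4 at 0.15) and 0 fell with anastrozole. These 2 are not the gene that fell with anastrozole under TMM scaling, PYCR1, which kept its sign but was no longer called. ATF3, a stress-induced factor that ATF4 activates, rose by 0.43 ± 0.07 with E2 (adjusted p = 1.15e-08) and by 0.42 ± 0.07 with the combination (1.86e-07). It measured 29.8, 26.9 and 30.2 CPM with vehicle, 35.5, 36.2 and 29.8 with anastrozole, 39.8, 39.0 and 38.04 with E2 and 38.5, 36.7 and 41.0 with the combination, so that 1 anastrozole library fell within the vehicle range while all E2 and combination libraries were above it. STC2, a secreted glycoprotein, rose by 0.18 ± 0.03 with the combination (2.46e-05). PYCR1, of proline synthesis, fell by 0.24 ± 0.05 with anastrozole (0.00029) and by 0.20 ± 0.04 with E2 (1.53e-05), and XPOT, the exporter of tRNA from the nucleus, rose by 0.13 ± 0.03 with E2 (0.00123). These calls of PYCR1 and XPOT were lost with the GC trend removed (-0.11 and -0.06 for PYCR1, 0.06 for XPOT).

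Of 17 other amino acid transporters, 0 passed with anastrozole (4 had an unadjusted p under 0.05, and the other 3 tools called 0), 2 fell with E2 and 2 fell with the combination, and none rose with any of the 3 under TMM scaling. With the GC trend removed, 1 rose (SLC43A1, at 0.46 ± 0.13) and 3 fell with E2, and the counts with anastrozole and the combination were as before. The median log2 fold change under TMM scaling was -0.025, -0.034 and -0.055 with anastrozole, E2 and the combination. SLC38A2, a carrier of small neutral amino acids that ATF4 also controls, fell by 0.22 ± 0.03 with the combination (adjusted p = 9.62e-09) and SLC38A1, its close relative, by 0.16 ± 0.03 (5.68e-05). SLC43A2, a carrier of large neutral amino acids, fell by 0.29 ± 0.07 with E2 (0.000652). The other was SLC6A14, which lay near the floor of 3 counts, with means of 0.548 CPM in vehicle and 0.138 CPM with E2 (adjusted p = 0.0494). Of the 17 mitochondrial synthetases, 0 passed in any of the 6 comparisons of groups by edgeR's test or by the other 3 tools, and 4, 4 and 3 had an unadjusted p under 0.05 against vehicle with anastrozole, E2 and the combination. Of the 3 scaffold genes of the synthetase complex 0 passed by any of these tools, and 0, 1 and 0 had an unadjusted p under 0.05.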

How the data were processed

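Counts per gene in 12 libraries were used as deposited. The authors aligned reads to hg19 and counted them per gene (TopHat2 2.0.14, Bowtie2 2.2.6 and HTSeq, from the submitters' processing notes), and deposited whole-number counts without normalization. The annotation and strand setting are not given in the sources used here. The labels give polyA RNA, while the methods describe total RNA libraries. The 5 summary rows were left out: 32.7% to 33.5% of reads were on genes, and 58.6% to 59.9% in no feature. Removing 4238 genes without a count in any library left 21132.

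Fits used edgeR 4.0.16 in R 4.3.3 (TMM, robust quasi-likelihood test, Benjamini-Hochberg adjustment, threshold 0.05), with standard errors derived from the fold change and the F statistic (log2 fold change over root F). Alternatives were DESeq2 1.42.0 (size factors, test), library size alone, filterByExpr, limma-voom (limma 3.58.1), edgeR's exact test, all 12 libraries in one fit, a replicate block, removal of the GC trend (lowess, span 0.5, genes of at least 3 log2 CPM) and leaving out each library. The interaction was added after seeing the data. Gene positions and exon GC were taken from GENCODE release 44 on GRCh37, and promoter windows from RefSeq. GC content and shared exon bases were taken over the exons of all annotated transcripts of a gene, merged. Merged exons spanned 22418 bases for IARS, 17366 for GARS and 11443 for MTHFD2, and may hold bases that the mRNA in these cells lacks. All 38 members could be named, and from each further list at most the 3 genes with the lowest adjusted p past the threshold per comparison, plus EIF2S1, EIF2AK3, EIF2AK4 and PPP1R15A. EIF2B1, DDIT4 and SLC43A1 fall outside this rule and were named after their values were seen. The members and lists were chosen with earlier results of these data known.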

Additional observations from a re-analysis of the deposited data

Results flagged for a closer look

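The effect of anastrozole differed with and without E2 for 10 members by the interaction term of edgeR's quasi-likelihood test (Benjamini-Hochberg adjusted p under 0.05, 12 libraries), given as the log2 effect of anastrozole in the presence of E2 minus that in its absence. CEBPG stood at -0.39, DDIT3 at -0.37, MTHFD2 at -0.28, TARS at -0.25 and DARS (aspartate) at -0.23. ATF5 stood at 0.52, VARS at 0.33, SLC1A5 at 0.28, SLC7A5 at 0.25 and FARSA at 0.25. Those of CEBPG, DDIT3 and MTHFD2 passed in all 8 alternative fits. After removal of the GC trend they stood at -0.28, -0.38 and -0.19, those of the other 7 no longer passed, and ATF4 passed at -0.16. FARSA's call was lost in 5 of 12 fits that left out a library (without vehicle replicate a, E2 replicate a or b, or combination replicate a or b), and that of TARS in 2 (without vehicle replicate c or anastrozole replicate a). Groups of 3 were too small for a test of single outlying libraries.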

How the results depend on the processing

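Of the called values, 0 changed sign under any alternative. The members counted with anastrozole against vehicle (6) were 1 with the DESeq2 test, 0 with limma-voom, 2 with the GC trend removed and 2 with the GC trend removed and the replicate block, and 1 to 9 when a library was left out. With E2 (13) they were 8 with limma-voom and 8 to 13. With the combination (5) they were 2 with the DESeq2 test, 1 with limma-voom, 8 with the GC trend removed and the replicate block, and 2 to 5. Between anastrozole and E2 (1) they were 0 with limma-voom, 0 with the replicate block, 2 with the GC trend removed, 2 with that and the block, and 0 to 3. Between the combination and E2 (4) they were 2 with the DESeq2 test, 1 with limma-voom, 0 with the GC trend removed with or without the block, and 2 to 5. Between the combination and anastrozole (2) they were 1 with filterByExpr, 1 with the DESeq2 test, 1 with edgeR's exact test, 0 with limma-voom, and 1 to 7. The interaction (10) gave 4 with the GC trend removed and 5 with that and the block. The calls over all genes moved too. With anastrozole (776) they were 238 with the DESeq2 test, 15 with limma-voom, 419 with filterByExpr and 416 with edgeR's exact test. In this comparison they were 1229 with all 12 libraries in one fit and 618 with the GC trend removed (687 with the block as well). With E2 (2537) they were 1407 with the DESeq2 test, 1379 with limma-voom, 1596 with the GC trend removed and 1495 with that and the block. With the combination (1065) they were 476 with the DESeq2 test, 347 with limma-voom and 1585 with the GC trend removed and the replicate block. Between anastrozole and E2 (280) they were 110 with the DESeq2 test, 70 with limma-voom, 160 with filterByExpr and 178 with edgeR's exact test. In this comparison they were 180 with the replicate block, 506 with the GC trend removed and 430 with that and the block. Between the combination and E2 (1424) they were 638 with the DESeq2 test, 451 with limma-voom and 824 with all 12 libraries in one fit. In this comparison they were 184 with the GC trend removed and 199 with that and the block. Between the combination and anastrozole (612) they were 295 with filterByExpr, 222 with the DESeq2 test, 324 with edgeR's exact test and 90 with limma-voom. The interaction (2295) gave 560 with the GC trend removed and 639 with that and the block. The causes were not tested.

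The replicate letters were checked as pairs. Not every pair of libraries with one letter deviated together from its group means, with correlations across 11037 genes between -0.195 and 0.184, so the letters were treated as names. With the replicate block the counts were 6, 11 and 7 against vehicle for anastrozole, E2 and the combination, then 0, 4 and 2 in the direct comparisons in the order above, and 10 for the interaction. For CHAC1 and SLC7A11, low counts limit what could be detected.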
